A study of Homo sapiens with 12 samples.

Results

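The genes described here are 10 members of the Wnt pathway, found by symbol among the 19038 transcripts of the RNA table and the 19037 of the footprint table, with 1 transcript each. They are the co-receptors LRP5 and LRP6, the parts of the destruction complex APC, AXIN1, AXIN2 and GSK3B, the effector CTNNB1 (beta-catenin), and the DNA-binding factors TCF7, TCF7L1 and TCF7L2. TCF7L1 was chosen by its measured change of footprints relative to RNA with zotatifin, which was large, so its values under that contrast are given as a description with no test, and it is left out of every count of genes that passed. The other 9 were taken as core parts of the pathway.

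The tumours were xenografts of 22Rv1, a human prostate cancer cell line, grown under the skin of the flank of male NSG mice, which were 6 to 8 weeks old when injected. NSG mice lack lymphocytes but keep their own myeloid cells, vessels and fibroblasts. Mice whose tumours had reached 70 to 100 mm3 were given zotatifin at 0.3 mg/kg in 5% dextrose, or the dextrose vehicle alone, into the peritoneum, and tumours were taken 6 h later. Zotatifin inhibits eIF4A, the helicase that opens mRNA leaders for the scanning ribosome. Each tumour lysate gave a ribosome footprint library (fragments of 24 to 34 nt from monosomes) and a total RNA library, and there were 3 libraries in each of 4 groups: zotatifin footprints, zotatifin RNA, vehicle footprints and vehicle RNA.

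In the canonical Wnt pathway, a Wnt ligand binds a Frizzled receptor and LRP5 or LRP6. Without ligand, APC and the axins hold beta-catenin for casein kinase 1 and GSK3B, which phosphorylate it and so mark it for the proteasome. When the complex is stopped, beta-catenin builds up and joins the TCF and LEF factors on DNA, where TCF7L1 is known mainly as a repressor and TCF7 and TCF7L2 as partners in activation. AXIN2 is a feedback inhibitor whose gene is itself a target of the pathway. In prostate cancer cells, beta-catenin is also known as a binding partner of the androgen receptor.

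Footprint libraries held 838135 to 1540867 counts with zotatifin and 1592316 to 2013968 with vehicle, and RNA libraries held 6594884 to 8153674 with zotatifin and 5761921 to 7121802 with vehicle. All 10 listed markers of prostate luminal epithelium were in the tables and tested, and their summed RNA level was 4510 to 4930 CPM with zotatifin and 3680 to 4600 CPM with vehicle. Their footprints summed to 5170 to 6010 CPM with zotatifin and 3960 to 5270 CPM with vehicle. At an adjusted p under 0.05, 2 rose and 1 fell in footprints (3.22% and 3.92% of all genes), and 0 changed in RNA. Markers of fibroblasts (10 of 10 in the tables) summed to 140 to 259 CPM of footprints with zotatifin and 462 to 797 CPM with vehicle. Their RNA summed to 69.4 to 131 CPM with zotatifin and 216 to 364 CPM with vehicle. At an adjusted p under 0.05, 5 of 6 tested fell in footprints (3.92% of all genes) and 4 of 6 in RNA (0.907%). Mean RNA of DCN (1.18 CPM with zotatifin, 0.86 with vehicle) and LUM (2.86 and 1.98) went the other way from the sum. The 10 myeloid markers summed to 40.7 to 82.2 CPM of footprints with zotatifin and 84.4 to 395 CPM with vehicle, with CD14 at 0 in every footprint library. Myeloid RNA summed to 14 to 24.9 CPM with zotatifin and 19.6 to 69.1 CPM with vehicle. By the same threshold, 2 of 6 tested fell in footprints and 2 of 4 in RNA. The 6 endothelial markers summed to at most 3.68 CPM of footprints with zotatifin and 4.45 CPM with vehicle, with EMCN at 0 in every footprint library. Mouse reads are not separated in the tables, and the part of these cells in the results below was not tested. In such bulk samples, fewer cells of a type and less RNA per cell cannot be told apart.

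Of the 10 genes, GSK3B had fewer footprints after zotatifin while its RNA did not pass the test in either direction. CTNNB1 had more RNA and fewer footprints in every zotatifin tumour than in any vehicle tumour, a pattern not counted over all genes. Neither change passed the test. Its change of footprints relative to RNA also missed the threshold, and passed only in some alternative fits. TCF7L1 went the other way, with more footprints on less RNA. The co-receptors and AXIN1 carried few footprints for their RNA under both treatments. AXIN2 and TCF7 had at most 4 footprints in any library.

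Here a level is in CPM (counts per 1e6 mapped to the tested genes) scaled by TMM, and a change is log2, zotatifin over vehicle, with its standard error. Translational efficiency (TE) stands for footprints relative to RNA. A gene was called at an adjusted p under 0.05 in edgeR's quasi-likelihood test, adjusted over all genes tested. Statements that the groups overlap, or that all tumours of 1 treatment lie above the other, are descriptions. The share of all genes without overlap was not counted. In footprints, 7 of the 9 genes other than TCF7L1 passed the filter on low counts, and 1 of them was called, GSK3B, which fell; across all 9544 genes tested, 7.14% were called in either direction, 3.22% rose and 3.92% fell. In RNA all 9 were tested and 0 were called by edgeR, against 1.72% of 13118 genes (0.808% rose and 0.907% fell), and 0 were called by DESeq2. An unadjusted p under 0.05 in edgeR's test was reached by 4 of the 9 in RNA, 2 of the 7 in footprints and 2 of the 7 tested in TE. The share of all genes at that unadjusted p was not counted in any comparison. The shares called are no measure for it, and nothing is drawn from these counts. In TE, 7 were tested and 1 was called, again GSK3B, against 2.04% of 9454 genes in either direction, 0.444% that rose and 1.60% that fell. The median change of the tested genes was −0.091 in footprints, 0.052 in RNA and −0.020 in TE, beside 0.0030, −0.0023 and −0.014 over all genes tested. Each of these calls is a single gene, and no share of the members was tested against the background.

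**Figure D1:**
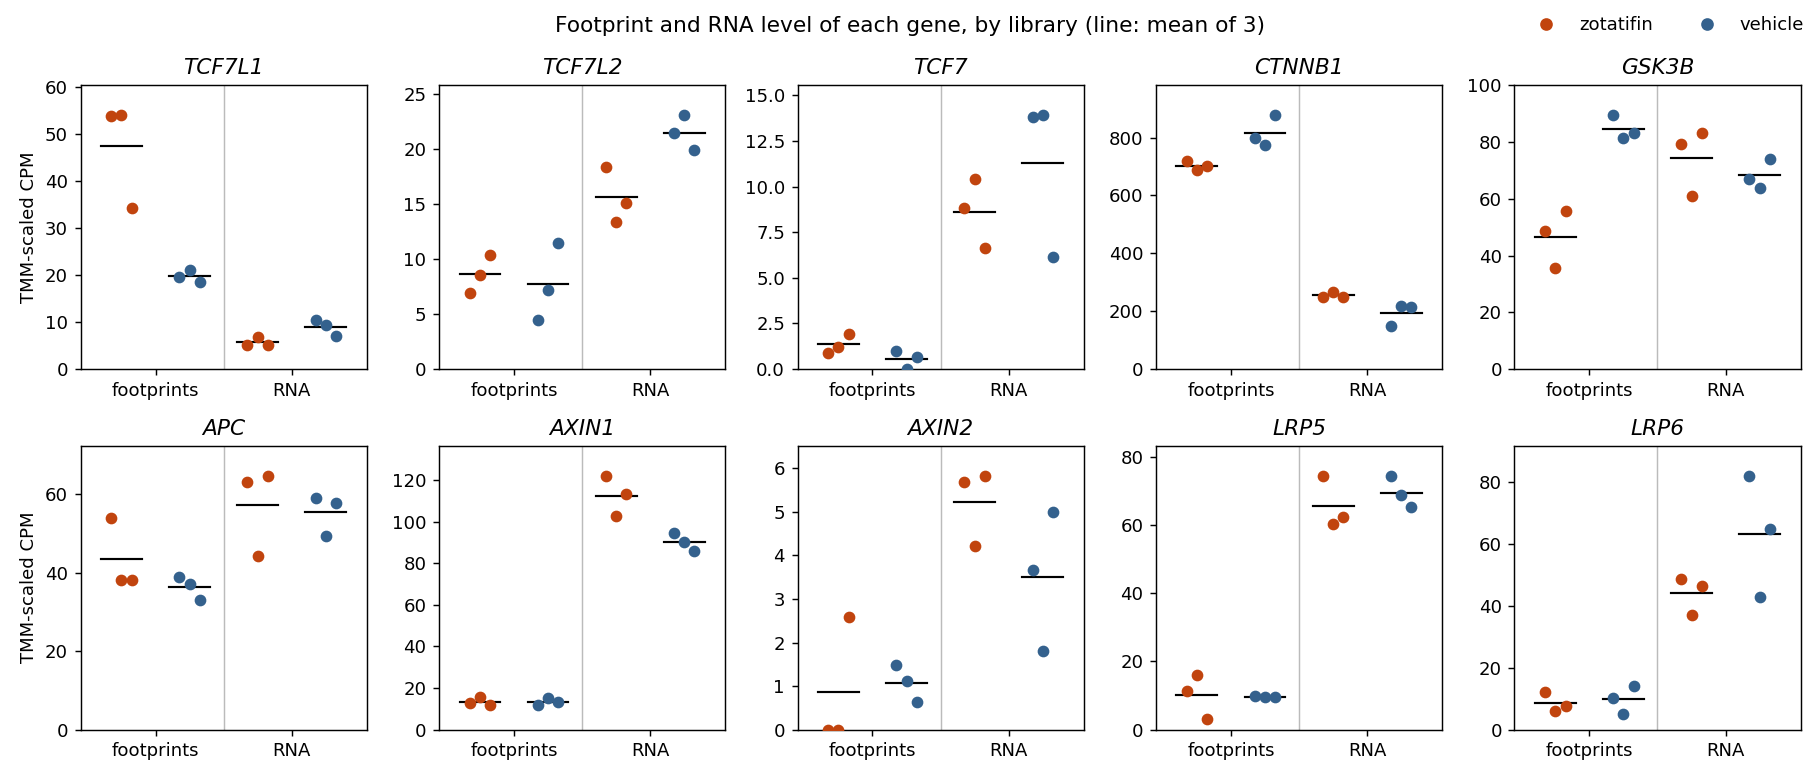
Footprint and RNA level (CPM, linear axes from 0, one scale per gene) of the 10 genes in the 12 libraries, zotatifin left of vehicle, each point a library and each line the mean of 3. GSK3B footprints lie between 35.6 and 55.6 CPM with zotatifin and between 81.6 and 89.4 CPM with vehicle, and TCF7L1 footprints show the opposite order.

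GSK3B is the kinase that completes the phosphorylation of beta-catenin (transcript ENST00000316626, chromosome 3, 119821321 to 120094447; coordinates here and below are those of the RefSeq gene in GRCh38.p14). Its footprints stood at 48.6, 35.6 and 55.6 CPM in the 3 zotatifin tumours, against 89.4, 81.6 and 83.2 CPM in the 3 vehicle tumours. All 3 zotatifin values lay below all 3 vehicle values. The means were 46.6 ± 10.2 CPM with zotatifin and 84.8 ± 4.14 CPM with vehicle (SD, n = 3 each), a log2 change of −0.82 ± 0.16 (SE, adjusted p = 0.0015). GSK3B RNA stood at 79.2, 61.1 and 83.3 CPM with zotatifin and 67.1, 63.7 and 74.0 CPM with vehicle, and the groups overlapped. The RNA change was 0.13 ± 0.14 (adjusted p = 0.655, 95% interval −0.15 to 0.41).

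In each tumour, TE was taken as log2 of footprint CPM over RNA CPM. For GSK3B it was −0.69, −0.76 and −0.58 with zotatifin and 0.42, 0.36 and 0.17 with vehicle. Every zotatifin tumour was below every vehicle tumour, and the SD was 0.092 with zotatifin and 0.13 with vehicle (n = 3 each). The TE change was −0.95 ± 0.21 (adjusted p = 0.014), and −0.98 ± 0.17 with the tumour as a block (adjusted p = 5.5e-05). In the authors' deposited table, the estimate for GSK3B came to −0.97 on the log2 scale (FDR 1.65e-08). It comes from the authors' own model of the same data, whose handling of the spread between tumours is not given in the sources used here. The footprint call held without any 1 library (adjusted p up to 0.0275). The TE call did not: without the 2 libraries of zotatifin tumour 1 its adjusted p was 0.0977, and without those of vehicle tumour 1, 2 or 3 it was 0.121, 0.0623 and 0.0501. The change without them stayed between −1.03 and −0.89. The paralog GSK3A, which can stand in for GSK3B on beta-catenin, had 52.9 ± 6.29 CPM of footprints with zotatifin and 47.5 ± 1.66 CPM with vehicle (SD, n = 3 each) and a TE change of 0.39 ± 0.20 (adjusted p = 0.352). The difference between the paralogs was not tested.

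CTNNB1 encodes beta-catenin (ENST00000349496, chromosome 3, 41199505 to 41240443), which links cadherins to actin at the membrane and drives transcription in the nucleus. Its footprints stood at 720, 688 and 701 CPM with zotatifin and 798, 773 and 877 CPM with vehicle. Its RNA stood at 248, 267 and 250 CPM with zotatifin and 148, 219 and 213 CPM with vehicle. In both assays the groups did not overlap, and they were placed in opposite order, a pattern that was not counted over all genes. The footprint change was −0.21 ± 0.10 (adjusted p = 0.199) and the RNA change 0.40 ± 0.14 (adjusted p = 0.128), and neither passed. RNA of vehicle tumour 1 was the lowest of the 6, and without that library the RNA change was 0.24 (adjusted p = 0.420).

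The log2 ratio of CTNNB1 footprints to RNA was 1.54, 1.37 and 1.49 with zotatifin and 2.44, 1.82 and 2.05 with vehicle. Each zotatifin tumour was below each vehicle tumour. The TE change of −0.62 ± 0.17 missed the threshold (adjusted p = 0.057, 95% interval −0.97 to −0.26). With the tumour as a block, which compares the 2 libraries of each lysate, it passed (−0.63 ± 0.12, adjusted p = 2.0e-04); that fit called 9.14% of all genes. The authors' deposited table gives −0.60 on the log2 scale for CTNNB1 with an FDR of 7.36e-31. That FDR comes from the authors' own model of the same data. How it treats the spread between tumours is not given in the sources used here, so it is not comparable to the adjusted p of 0.057. Without vehicle tumour 1 the change was −0.47.

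**Figure D2:**
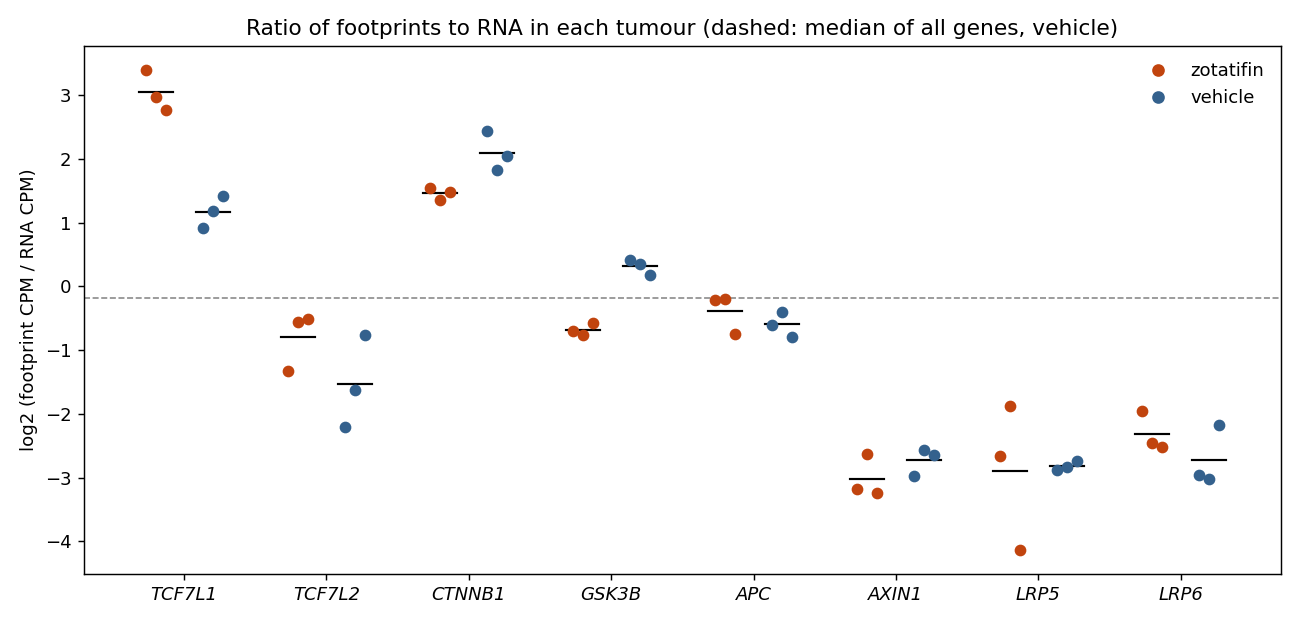
Log2 ratio of footprint to RNA CPM in each tumour for the 8 genes tested for TE, zotatifin left of vehicle, each point a tumour and each line the mean of 3; the dashed line is the median of all 9454 genes with vehicle (−0.18). GSK3B lies on opposite sides of that line under the 2 treatments, while AXIN1, LRP5 and LRP6 lie far below it under both.

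TCF7L1, the repressor among the TCF factors (ENST00000282111, chromosome 2, 85133392 to 85310387), had footprints at 53.8, 54.0 and 34.3 CPM with zotatifin and 19.7, 21.1 and 18.4 CPM with vehicle. These rest on 62, 44 and 53 counts with zotatifin and 40, 38 and 29 with vehicle. Every zotatifin library was above every vehicle library, also in raw counts, although the zotatifin libraries were the smaller ones. TCF7L1 RNA stood at 5.08, 6.85 and 5.03 CPM with zotatifin and 10.5, 9.33 and 6.95 CPM with vehicle, so that the closest values of the groups almost met. The log2 ratio was 3.40, 2.98 and 2.76 with zotatifin and 0.91, 1.18 and 1.42 with vehicle.

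The change of TCF7L1 that chose it was 1.89 ± 0.34 in TE, the rise of rank 10 among 9454 genes, made up of 1.22 ± 0.21 in footprints and −0.66 ± 0.28 in RNA. The authors' deposited table gives 1.54 on the log2 scale for its TE. Without zotatifin tumour 3, which had the lowest footprint CPM of the 3, the footprint change was 1.44. With vehicle, its ratio stood at percentile 86.1 of all genes, and with zotatifin at percentile 99.1. Over the 12 libraries, centred within each assay, the 5 genes of 7614 whose log2 levels followed those of TCF7L1 most closely were PGAM5 (Pearson r = 0.937), ATMIN (0.912), GDF11 (0.910), AEN (0.909) and MEN1 (0.904). Pearson r leaves out the size of a change. The TE changes of these 5 genes, in that order, were 0.356, 1.116, 1.455, 0.655 and 0.510, beside 1.89 for TCF7L1. All these values share the contrast that chose TCF7L1, and the libraries share their depth.

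TCF7L2, the TCF factor best known from the gut epithelium and from risk of type 2 diabetes (ENST00000627217, chromosome 10, 112950247 to 113167678), had 7 to 16 footprint counts per zotatifin library and 9 to 18 per vehicle library. Its footprint level was 6.94, 8.58 and 10.4 CPM with zotatifin and 4.42, 7.22 and 11.4 CPM with vehicle, with overlap. Its RNA was 18.4, 13.4 and 15.1 CPM with zotatifin and 21.5, 23.1 and 19.9 CPM with vehicle. RNA of each zotatifin tumour was below that of each vehicle tumour, as for TCF7L1, but the change did not pass (−0.45 ± 0.19, adjusted p = 0.197). The TE change of TCF7L2 was 0.69 ± 0.42 (adjusted p = 0.453), with a 95% interval of −0.17 to 1.54 that its few footprints leave wide.

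TCF7, known from T cells (ENST00000342854, chromosome 5, 134108218 to 134148210), had 1, 1 and 3 footprint counts with zotatifin and 2, 0 and 1 with vehicle, and was not tested in footprints or TE. The library without a count allows up to 1.64 CPM, the level of 3 counts. TCF7 RNA was present, at 8.83, 10.4 and 6.61 CPM with zotatifin and 13.8, 13.9 and 6.12 CPM with vehicle, with overlap (−0.38 ± 0.29, adjusted p = 0.515). The TCF genes share a closely similar DNA-binding box, and how reads that fit several of them were counted is not given in the sources used here.

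APC, the scaffold that holds beta-catenin in the destruction complex (ENST00000257430, chromosome 5, 112707498 to 112846239), had footprints at 53.8, 38.0 and 38.2 CPM with zotatifin and 38.8, 37.2 and 33.0 CPM with vehicle. The groups overlapped, with zotatifin tumour 1 above the rest (0.25 ± 0.18, adjusted p = 0.457). APC RNA averaged 57.3 ± 11.3 CPM with zotatifin and 55.4 ± 5.32 CPM with vehicle (SD, n = 3 each; 0.052 ± 0.15, adjusted p = 0.892). Its TE change was 0.20 ± 0.25 (adjusted p = 0.757, 95% interval −0.31 to 0.70).

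AXIN1, the limiting scaffold of the complex (ENST00000262320, chromosome 16, 287440 to 352723), had RNA at 122, 103 and 113 CPM with zotatifin and 94.8, 90.0 and 85.8 CPM with vehicle. Zotatifin tumours were all higher, by a change that did not pass (0.32 ± 0.12, adjusted p = 0.160). Its footprints did not follow: they were 13.0, 15.9 and 11.6 CPM with zotatifin and 11.8, 15.0 and 13.3 CPM with vehicle, from 13 to 18 counts per zotatifin library and 21 to 27 per vehicle library. The TE change was −0.34 ± 0.28 (adjusted p = 0.603).

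AXIN2, the feedback inhibitor (ENST00000307078, chromosome 17, 65528563 to 65561648), had 0, 0 and 4 footprint counts with zotatifin and 3, 2 and 1 with vehicle, and was not tested in footprints or TE. The 2 libraries without a count allow up to 2.56 and 3.58 CPM, so a footprint change of AXIN2 was not detectable at this depth. Its RNA was 5.68, 4.21 and 5.82 CPM with zotatifin and 3.67, 1.80 and 5.01 CPM with vehicle, with overlap (0.57 ± 0.37, adjusted p = 0.432).

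The co-receptor LRP5 (ENST00000294304, chromosome 11, 68298412 to 68449275) had RNA at 65.7 ± 7.56 CPM with zotatifin and 69.5 ± 4.50 CPM with vehicle (SD, n = 3 each; −0.079 ± 0.13, adjusted p = 0.796). Its footprints were 11.3, 15.9 and 3.23 CPM with zotatifin and 9.83, 9.44 and 9.53 CPM with vehicle. The zotatifin tumours spread on both sides of the vehicle tumours, and the TE change was −0.020 ± 0.39 (adjusted p = 0.993, 95% interval −0.82 to 0.78).

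LRP6 (ENST00000261349, chromosome 12, 12116025 to 12267044), the co-receptor that is phosphorylated on ligand binding, had RNA at 48.7, 36.9 and 46.3 CPM with zotatifin and 81.8, 42.9 and 64.7 CPM with vehicle. Vehicle tumour 2 lay within the zotatifin range. The change of −0.52 ± 0.18 did not pass (adjusted p = 0.131), but without vehicle tumour 2 it was −0.73 and did (adjusted p = 0.018). LRP6 footprints came to 5 to 14 counts per zotatifin library and 9 to 22 per vehicle library, and its TE change was 0.39 ± 0.48 (adjusted p = 0.752).

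**Figure D3:**
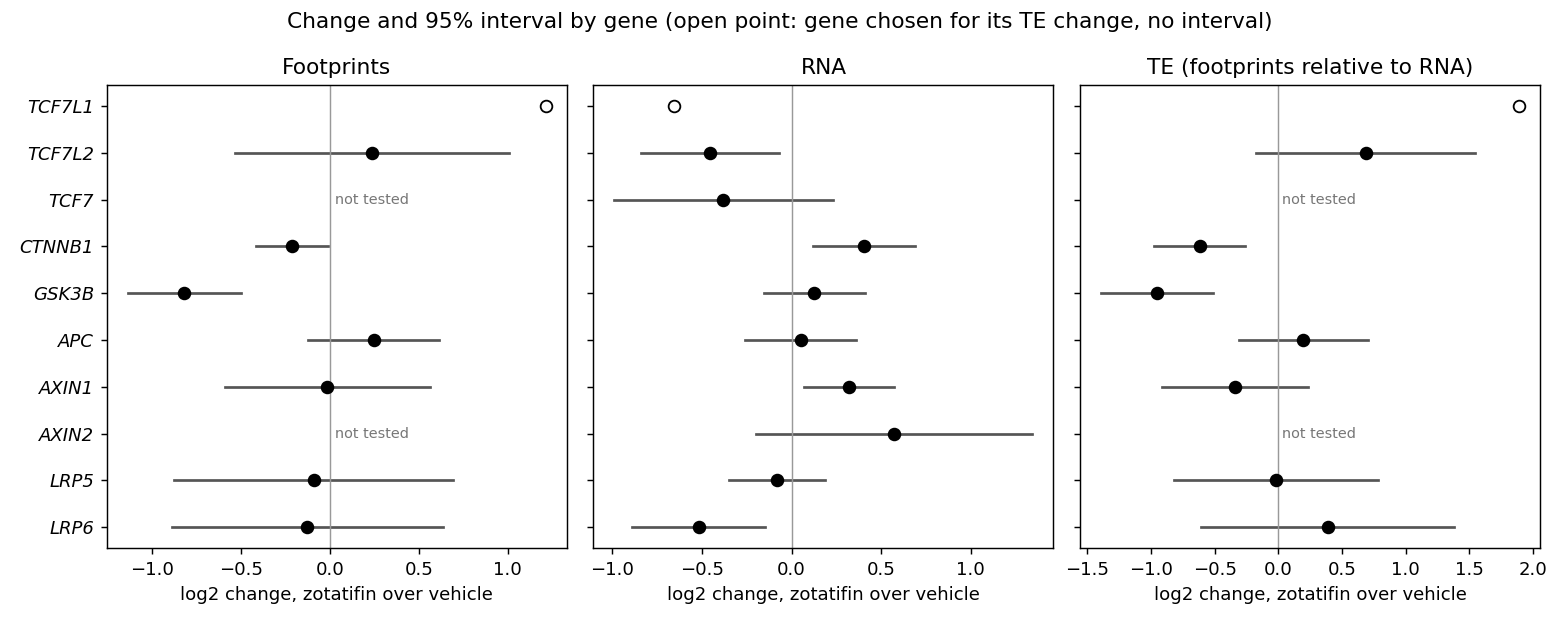
Log2 change, zotatifin over vehicle, in footprints, RNA and TE for the 10 genes, with bars for the 95% interval of the edgeR fit; TCF7L1, chosen for its TE change, is an open point with no interval. GSK3B is the gene called in footprints and TE, and the TE intervals of LRP5 (−0.82 to 0.78) and LRP6 (−0.60 to 1.38) are wide.

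The ratio of footprints to RNA also differed between the 8 genes tested for TE; TCF7 and AXIN2 had too few footprints to be placed. The order of the 8 in vehicle tumours ran from CTNNB1 (2.10) over TCF7L1 (1.17), GSK3B (0.32), APC (−0.60), TCF7L2 (−1.53), LRP6 (−2.72) and AXIN1 (−2.73) to LRP5 (−2.82), beside a median of −0.18 over all genes. That put CTNNB1 at percentile 96.7 of 9454 genes and LRP6, AXIN1 and LRP5 at percentiles 2.93, 2.89 and 2.42. The last 3 did not differ from each other beyond the spread of their tumours (SD 0.47, 0.22 and 0.077, n = 3 each). With zotatifin, LRP6, LRP5 and AXIN1 stood at percentiles 5.05, 1.78 and 1.41 and CTNNB1 at 92.8. GSK3B stood at percentile 34.6 with zotatifin and 65.4 with vehicle. The ratio needs no correction for length only if both assays counted the same part of the transcript, which is not given in the sources used here.

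The gene starts of TCF7L1, GSK3B and CTNNB1 are shown for their context. Of these, TCF7L1 was not tested and CTNNB1 was not called in the main fits. Shown are the 250 bases before the RefSeq start in GRCh38.p14, 5′ to 3′ on the strand of the gene. Capitals mark GGGCGG on either strand, the core of the GC box bound by SP1.
TCF7L1, chr2:85133142-85133391, plus strand: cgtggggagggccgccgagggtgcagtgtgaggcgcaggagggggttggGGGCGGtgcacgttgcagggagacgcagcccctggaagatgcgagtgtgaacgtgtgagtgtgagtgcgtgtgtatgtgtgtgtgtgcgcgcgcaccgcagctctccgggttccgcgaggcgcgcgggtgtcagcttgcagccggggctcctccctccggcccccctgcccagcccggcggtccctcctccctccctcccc
GSK3B, chr3:120094448-120094697, minus strand: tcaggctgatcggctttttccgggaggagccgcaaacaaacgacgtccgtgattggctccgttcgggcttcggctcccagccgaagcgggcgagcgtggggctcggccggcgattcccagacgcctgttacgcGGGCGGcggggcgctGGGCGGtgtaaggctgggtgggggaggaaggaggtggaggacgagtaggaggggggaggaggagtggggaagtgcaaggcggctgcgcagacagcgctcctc
CTNNB1, chr3:41199255-41199504, plus strand: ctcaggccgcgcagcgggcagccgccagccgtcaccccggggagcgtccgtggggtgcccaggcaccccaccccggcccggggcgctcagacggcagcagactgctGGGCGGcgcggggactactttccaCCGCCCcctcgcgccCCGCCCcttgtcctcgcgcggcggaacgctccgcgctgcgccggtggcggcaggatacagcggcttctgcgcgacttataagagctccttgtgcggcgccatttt
The hexamer occurred 1, 2 and 3 times in these windows, and 42.6% of 35116 RefSeq windows of the same length held it at least once. The core bound by TCF factors, searched as CTTTGAT and CTTTGAA on both strands, matched in none of the windows of the 8 members that RefSeq's table holds (all but AXIN2 and LRP6), against 5.94% of all windows.

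The first 50 bases from the RefSeq starts were summarised by base composition; these starts were matched by gene symbol, not to the counted transcript. Of these bases, 86% were G or C in TCF7L1, 72% in GSK3B and 72% in CTNNB1, beside a median of 60% over all starts. Purines, which rocaglates such as zotatifin are known to favour when they hold eIF4A on RNA, made up 52% in TCF7L1, 50% in GSK3B and 54% in CTNNB1, beside a median of 52%. Neither GGCGGC on the sense strand (8.17% of all starts) nor AGAGA or GAGAG (13.2%) was found in the first 50 bases from any of the RefSeq starts of the 8 members. This says only which letters are in that window.

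Around these 10 genes, 106 other listed genes of the pathway were in the tables. The list was chosen with earlier results of these data known. In footprints 3 of 46 tested were called (6.52%, beside 7.14% of all genes). In RNA 2 of 72 were called (2.78%, beside 1.72%), and in TE 4 of 46 (8.70%, beside 2.04%). The median TE change of the 46 was −0.14, beside −0.014 over all genes. No share is set apart from the background by a test here. Of 25 genes listed together (Wnt ligands, genes of their secretion and the RSPO genes), 1 had enough footprints to test. It was the ligand carrier WLS (footprint change −0.50 ± 0.27, adjusted p = 0.286). The ligand WNT8B and the antagonist SFRP2 averaged 5 and 7.33 footprint counts per library and were not tested.

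Of the 16 genes tested in the cytoplasmic part of the pathway, CSNK1A1 fell in footprints and in TE. It encodes casein kinase 1 alpha, which primes beta-catenin for GSK3B. Its footprints were 249, 251 and 308 CPM with zotatifin and 347, 330 and 378 CPM with vehicle, with no overlap (−0.37 ± 0.11, adjusted p = 0.034). That call was lost without zotatifin tumour 1 or 2 or vehicle tumour 1 or 3 (adjusted p up to 0.161). Its RNA was 175, 187 and 184 CPM with zotatifin and 143, 160 and 136 CPM with vehicle (0.31 ± 0.12, adjusted p = 0.159). Like CTNNB1, the kinase was higher in RNA and lower in footprints in each zotatifin tumour than in any vehicle tumour, and its TE change of −0.69 ± 0.16 was called (adjusted p = 0.018).

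Tankyrase TNKS and the ubiquitin ligase RNF146, which together mark axin for degradation, moved in opposite directions in TE. TNKS had footprints at 80.7, 67.4 and 91.2 CPM with zotatifin and 58.5, 63.3 and 67.4 CPM with vehicle (0.37 ± 0.15, adjusted p = 0.124). Its RNA was 88.6, 64.5 and 94.2 CPM with zotatifin and 115, 97.7 and 117 CPM with vehicle (−0.41 ± 0.14, adjusted p = 0.127). Neither was called alone. Its TE, which takes in both the higher footprints and the lower RNA, rose by 0.78 ± 0.21 (adjusted p = 0.048). RNF146 RNA rose, with 25.4, 28.5 and 22.8 CPM with zotatifin and 16.1, 14.1 and 14.7 CPM with vehicle (0.77 ± 0.18, adjusted p = 0.032). RNF146 footprints were 19.1, 20.9 and 28.5 CPM with zotatifin and 28.0, 32.2 and 24.8 CPM with vehicle, with overlap, and its TE change was −1.05 ± 0.28 (adjusted p = 0.038). CXXC4, an inhibitor that binds Dishevelled, rose in footprints, to 1061 ± 237 CPM with zotatifin against 674 ± 48.7 CPM with vehicle (SD, n = 3 each; 0.65 ± 0.13, adjusted p = 0.0026). It had 1009 to 1331 footprint counts on 66 to 101 RNA counts per zotatifin tumour and 1118 to 1259 on 50 to 56 per vehicle tumour. Its mean log2 ratio was 6.47 with zotatifin and 6.33 with vehicle, beside a median of −0.18 over all genes with vehicle. Whether all these fragments come from ribosomes on CXXC4 was not tested. CXXC4 RNA (0.51 ± 0.24, adjusted p = 0.255) and TE (0.14 ± 0.24, adjusted p = 0.835) were not called.

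Among receptors, FZD5 fell in TE by 1.10 ± 0.28 on the log2 scale (adjusted p = 0.031). Its footprints were 13.9, 20.9 and 10.4 CPM with zotatifin and 25.1, 23.9 and 21.6 CPM with vehicle, and its RNA 252, 222 and 245 CPM with zotatifin and 218, 182 and 163 CPM with vehicle. Neither passed alone (adjusted p = 0.087 in footprints and 0.144 in RNA). RNA of FZD8 rose to 28.5 ± 2.63 CPM with zotatifin, against 18.0 ± 0.790 CPM with vehicle (SD, n = 3 each; 0.66 ± 0.17, adjusted p = 0.045). FZD6, a receptor also used in planar polarity, had a change of −0.21 ± 0.21 in footprints that did not pass (adjusted p = 0.593).

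Each of these TE calls rests on few tumours: all of CSNK1A1, TNKS, RNF146 and FZD5 were lost without at least 1 tumour, with adjusted p up to 0.139, 0.240, 0.197 and 0.226. The RNA calls of RNF146 and FZD8 were lost without any 1 library but that of vehicle tumour 2 (adjusted p up to 0.122 and 0.177). With the tumour as a block, 7 of the 46 were called in TE (15.2%, beside 9.14% of all genes), namely CSNK1A1, TNKS, RNF146 and FZD5 and also JUP (0.50), SMARCA4 (0.41) and CTNND1 (−0.39).

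**Figure D4:**
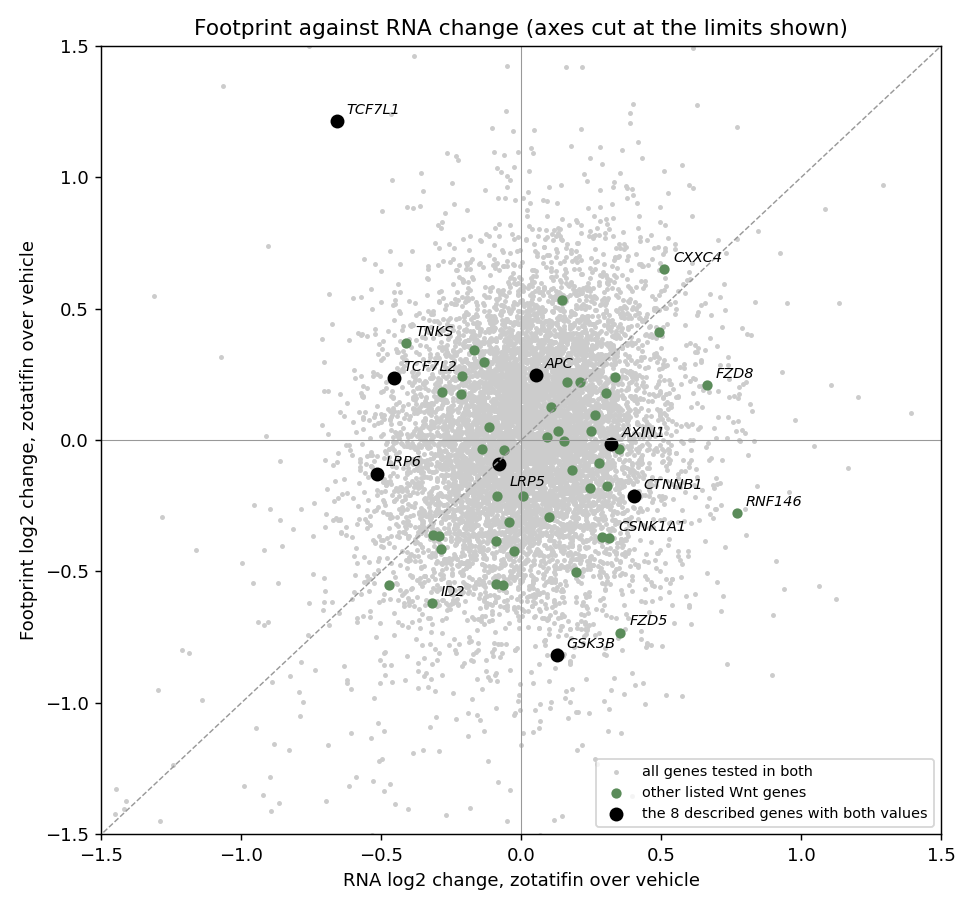
RNA change (x axis) against footprint change (y axis), both log2, zotatifin over vehicle; grey points are the genes tested in both that lie within the axis limits, green points other listed Wnt genes, black points the 8 genes with both values, and the dashed line marks equal change. TCF7L1 lies far above the line, and GSK3B, CTNNB1, CSNK1A1, FZD5 and RNF146 lie below it.

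Of 5 targets of the pathway tested in footprints, 1 was called, beside 7.14% of all genes. Footprints of ID2, an inhibitor of basic helix-loop-helix factors, fell to 39.9, 61.3 and 56.9 CPM with zotatifin, against 84.0, 83.3 and 73.7 CPM with vehicle (−0.62 ± 0.16, adjusted p = 0.015). That call was lost without zotatifin tumour 1 or vehicle tumour 1 (adjusted p = 0.125 and 0.0961). CCND1, the G1 cyclin, averaged 1269 ± 37.2 CPM of footprints with zotatifin and 1090 ± 84.7 CPM with vehicle (0.22 ± 0.10, adjusted p = 0.191). MYC averaged 204 ± 26.1 CPM with zotatifin and 179 ± 15.0 CPM with vehicle (SD, n = 3 each; 0.18 ± 0.12, adjusted p = 0.401). Of the listed proteins of cadherin junctions, CTNNA1 had 878 ± 33.6 CPM of footprints with zotatifin and 824 ± 84.5 CPM with vehicle (0.094 ± 0.10, adjusted p = 0.637). CTNND1 had 330.3 ± 23.0 CPM with zotatifin and 340 ± 32.0 CPM with vehicle (−0.035 ± 0.11, adjusted p = 0.882). The coactivators SMARCA4 (0.30 ± 0.13, adjusted p = 0.158) and EP300 (−0.087 ± 0.16, adjusted p = 0.797) were not called in footprints, nor was the secreted antagonist WIF1 (−0.18 ± 0.31, adjusted p = 0.783).

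**Figure D5:**
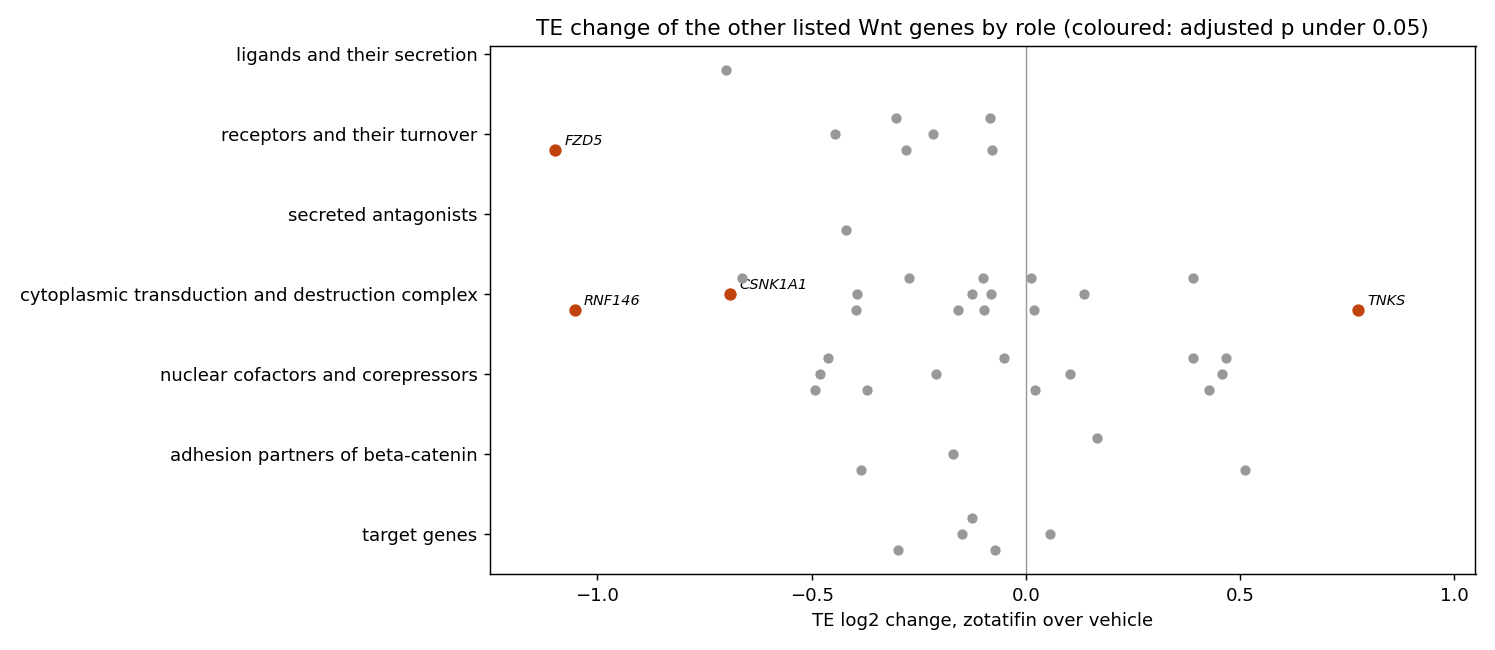
TE change (log2, zotatifin over vehicle) of the 46 other listed Wnt genes that were tested, by role; each point is a gene, set off vertically for legibility, and coloured where the adjusted p was under 0.05. FZD5, RNF146 and CSNK1A1 are the calls below 0 and TNKS the call above it.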

How the data were processed

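The authors deposited whole-number counts, 1 row per transcript, for each RNA and footprint library. Per the submitters' processing notes, reads were handled with Bowtie2 2.3.5, UMI-tools and cutadapt 2.3 against hg38, and DESeq2 was used. The sources used here do not give the order, the strand or the part of each transcript counted. In the authors' deposited RNA table, changes and their errors are log2 values, baseMean is a signal, the Wald statistic is a score, and each p-value comes raw and adjusted. In the authors' deposited footprint table, the estimate is on the natural log scale. That was read from the values: regressed over 1566 genes on both log2 changes, it took slopes of 0.665 (footprints) and −0.666 (RNA), near the natural log of 2 (0.693). It was divided by that number for the log2 scale.

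Groups came from titles and column names; the treatment field of 6 samples contradicts its title, and columns with a compound code in place of a name were read as zotatifin. The count tables were filtered with filterByExpr (at least 10 counts, 15 in total) in edgeR 4.0.16 (R 4.3.3), scaled by TMM and tested with the robust quasi-likelihood F test, with Benjamini-Hochberg adjustment over all genes tested. TE was the interaction of assay and treatment over 12 libraries, with TMM within each assay; TE levels used a prior count of 0.5. Scripts were tested on simulated data. Alternatives were DESeq2 1.42.0, other scaling, no filter, a block and leaving out each tumour.

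Footprint and RNA libraries of one number came from the same lysate, and the tumour block rests on this. Their deviations from the group mean correlated at 0.217 to 0.440 (6 pairs, 4889 genes), against −0.381 to 0.119 for other numbers. Deviations within a group cancel out, so a positive correlation for the same number pulls the others down. The ranges are therefore not independent. The 10 genes and the lists were chosen with earlier results of these data known. The other pathway genes named are those called, those with the most footprints in their role, GSK3A, chosen after its values were seen as the paralog of GSK3B, and those called with the tumour block. The 5 genes most like TCF7L1 had a mean of at least 20 counts in each assay. Limits for a count of 0 cover counting error only.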

Additional observations from a re-analysis of the deposited data

How the results depend on the processing

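The count of called genes in footprints was 681 of 9544 tested. With DESeq2 it was 421 of the 4972 with an adjusted p, and with 1 tumour left out 185 to 726 of 9751 to 9839. GSK3B was the 1 of the 9 genes called in each of these fits. Of the 9, 7 were tested, but only 3 with DESeq2. In RNA the count of called genes was 225 of 13118 tested. It was 624 with no low-count filter, 527 with the replicate block by number and 11 to 396 with 1 tumour left out. In those first 2 fits, which called more genes of any kind, CTNNB1 and LRP6 were called, 2 of the 9 genes. With 1 tumour left out, 0 to 1 of the 9 were called. In TE the count of called genes was 193 of 9454 tested (2.04%). It was 864 (9.14%) with the tumour as a replicate block and 60 to 146 with 1 tumour left out. In TE, 2 of the genes (GSK3B and CTNNB1) were called with library totals only, with no low-count filter, with DESeq2 and with the replicate block, and 0 to 1 with 1 tumour left out. CTNNB1 had an adjusted p of 0.0498, 0.0366 and 0.0259 in the first 3 of these. No share of the members called in any of these fits was tested against that of all genes. The TE call of TNKS was lost with library totals only (adjusted p = 0.0700). The replicate numbers did not pair zotatifin with vehicle tumours: their deviations correlated at −0.0947 to 0.181. Footprint depth limits AXIN2, TCF7, TCF7L2, LRP5, LRP6 and AXIN1.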
